A study of Mus musculus with 4 samples.

Results

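The genes described here mark the surface ectoderm, the epithelium that covers the limb bud. They are 6 keratin genes (Krt5, Krt8, Krt14, Krt15, Krt18 and Krt19), the transcription factor gene Trp63, and 3 adhesion genes (Epcam, Cdh1 and Perp), chosen by name: 10 of the 17712 genes in the table of values. RNA sequencing compared forelimbs of Shh null mouse embryos (2 libraries) with forelimbs of their wild-type littermates (2 libraries). Shh encodes Sonic hedgehog, a signalling protein that cells at the posterior edge of the bud release. All embryos were of the outbred Swiss Webster stock and had 33 to 35 somites, and the labels give their stage as E10.5 in one field and E10.25 in another. The labels describe neither the null allele nor how many embryos went into a library, and the design text calls the replicates technical, so every p-value here reflects library-to-library spread, which may be technical.

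The surface ectoderm is a thin sheet around a core of mesenchyme, so its transcripts are a small part of RNA taken from a whole limb bud. Keratins build the cytoskeleton of epithelial cells as pairs of a type II and a type I chain: Krt8 with Krt18 or Krt19 in simple epithelia, and Krt5 with Krt14 or Krt15 in the basal layer of stratified epithelia. Trp63 encodes p63, which mouse limb ectoderm needs to form a working apical ridge, and which activates Krt5, Krt14 and Perp. In bulk tissue, more cells of a type and more RNA per cell cannot be told apart.

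The libraries held 18456502 to 29620468 reads assigned to genes, and 1 read was worth 0.0351 to 0.0551 CPM (counts scaled by the authors to a common library size). Shh itself stood at 3.15 and 2.42 CPM in Shh null forelimbs, against 11.4 and 7.88 CPM in wild-type forelimbs (log2 fold change −1.47 ± 0.21 SE, limma adjusted p = 0.00615). Sex-linked transcripts also differed: Xist, made from the inactive X chromosome, had 522 and 468 CPM in Shh null and 225 and 152 CPM in wild type, and the Y-linked Ddx3y had 39.1 and 42.3 CPM in Shh null and 119 and 106 CPM in wild type. The part of this difference in the results below was not tested. The forelimb gene Tbx5, named after its values were seen, was present in every library (80.2 and 65.0 CPM in Shh null, 65.0 and 61.5 CPM in wild type).

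The keratin genes sit in a type II cluster on mouse chromosome 15 and a type I cluster on chromosome 11, with Krt18, a type I gene, beside Krt8. In GENCODE M21 (mm10) Krt5 (ENSMUSG00000061527) spans 101707070 to 101712898, Krt8 (ENSMUSG00000049382) 101996698 to 102004482 and Krt18 (ENSMUSG00000023043) 102028180 to 102032027 on chromosome 15. Krt15 (ENSMUSG00000054146, 100131758 to 100135928), Krt19 (ENSMUSG00000020911, 100140810 to 100148665) and Krt14 (ENSMUSG00000045545, 100203162 to 100207548) lie on chromosome 11. Trp63 (ENSMUSG00000022510) covers 25683763 to 25892102 of chromosome 16, Epcam (ENSMUSG00000045394) 87635979 to 87651129 of chromosome 17, Cdh1 (ENSMUSG00000000303) 106603351 to 106670246 of chromosome 8 and Perp (ENSMUSG00000019851) 18845020 to 18857073 of chromosome 10. All 10 are protein coding, and none overlaps another gene that has a row in the table. A processed pseudogene, Krt8-ps, is annotated on chromosome 7 and has no row, so reads of Krt8 that also match it may have been lost or shared.

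RefSeq promoters (GRCm38.p6, the same build) were found for 5 of the 10 genes. The 150 bases before the start are shown for 4 of them, because Krt5 and Epcam were higher in both Shh null libraries than in either wild-type library while Krt8 and Krt18 were not. None of these 4 was called in limma, and 25.1% of tested genes were higher in both Shh null libraries. The Krt14 entry is left out because its start lies far inside the annotated gene. Most of the Krt8 window and the last bases of the Krt18 window also fall within the GENCODE gene spans given above, which include transcripts with an earlier start. Capitals mark CAGGTG (or CACCTG, the same motif on the other strand), the E-box type bound by Snail-family repressors, and the TATA-type elements TATAA and ATAAAA, searched on both strands; TATAA and ATAAAA overlap within TATAAAA.
Krt5 promoter, chr15:101712906-101713055, minus strand: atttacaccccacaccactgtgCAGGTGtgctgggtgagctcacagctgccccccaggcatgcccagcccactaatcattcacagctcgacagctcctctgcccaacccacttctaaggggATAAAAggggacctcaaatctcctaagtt
Epcam promoter, chr17:87635829-87635978, plus strand: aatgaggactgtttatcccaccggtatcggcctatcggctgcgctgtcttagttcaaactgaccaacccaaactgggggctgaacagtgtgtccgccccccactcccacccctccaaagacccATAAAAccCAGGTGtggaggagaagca
Krt8 promoter, chr15:102004343-102004492, minus strand: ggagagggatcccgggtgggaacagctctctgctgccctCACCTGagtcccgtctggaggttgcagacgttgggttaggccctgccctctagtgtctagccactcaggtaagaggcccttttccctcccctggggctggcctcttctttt
Krt18 promoter, chr15:102028066-102028215, plus strand: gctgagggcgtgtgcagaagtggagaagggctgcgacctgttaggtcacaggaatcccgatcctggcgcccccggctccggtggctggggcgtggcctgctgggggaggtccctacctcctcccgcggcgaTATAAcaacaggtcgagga
CAGGTG was thus in the windows of Krt5, Epcam and Krt8, and in 10.6% of all 32851 promoter windows of this length. ATAAAA was in those of Krt5 and Epcam (10.1% of all windows) and TATAA in that of Krt18 (14.2%). A match is a description of letters, not of binding, and a link between motifs and levels was not tested.

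Per kilobase of annotated exon, the scale on which levels of different genes can be compared, Epcam, a cell adhesion protein of epithelia, was the most abundant of the 10 in all 4 libraries. It had 39.2 and 41.7 CPM per kb in Shh null and 37.2 and 34.9 CPM per kb in wild type, above the range of every other member. Krt18, Perp and Krt8 followed at means over the 4 libraries of 23.7, 23.2 and 22.7 CPM per kb, with ranges that overlapped. Krt5 (15.9) lay below the range of Krt8, and from Krt5 down each gene overlapped the next: Krt14 (11.5), Cdh1 (9.29), Trp63 (6.99), Krt19 (6.20) and Krt15 (3.68). Epithelial markers of the limb surface were thus present in every library, and by mean level per kilobase Krt18 and Krt8 came first among the 6 keratins. The length of 8.39 kb used for Trp63 joins the exons of all its isoforms, which lowers its value, and the gene total cannot separate the TA and ΔN forms of p63.

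**Figure D1:**
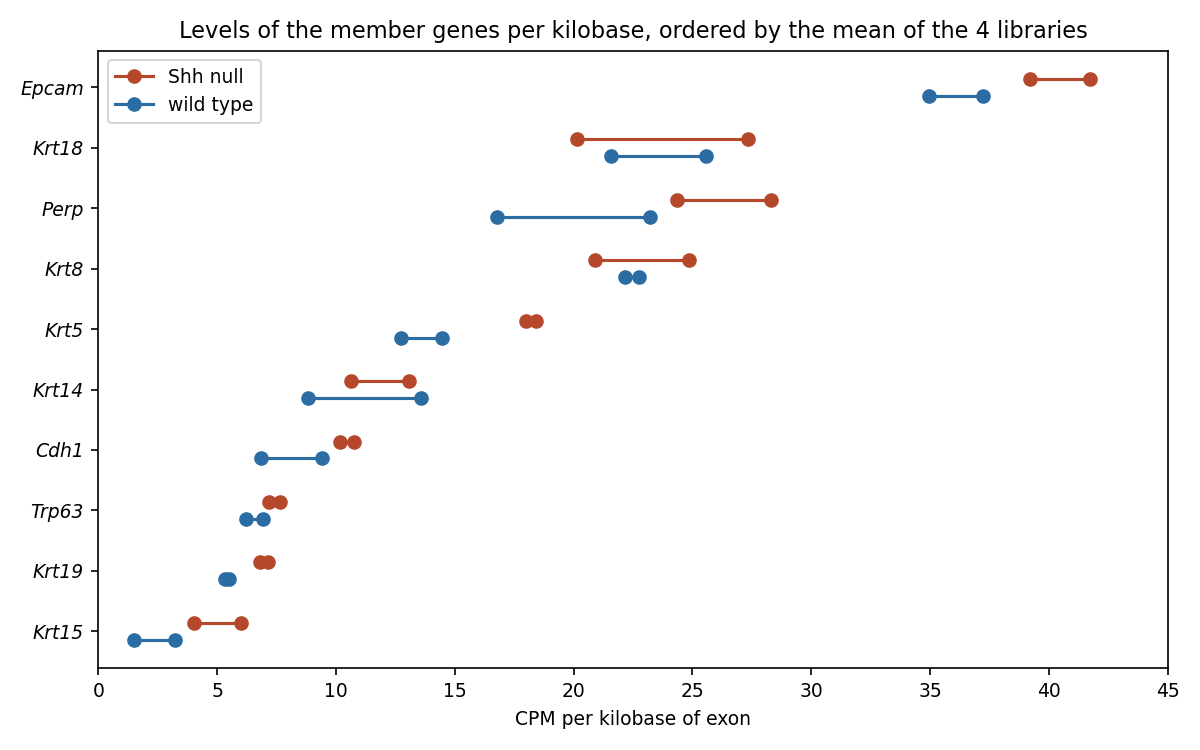
Levels of the 10 genes in CPM per kilobase of exon, with each point a library, Shh null above wild type for each gene, and a line joining the 2 libraries of a group. Epcam stands above all others in every library, Krt18, Perp and Krt8 share a range, and Krt15 is lowest on average, at 3.68 CPM per kb.

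No member passed the test for a difference between Shh null and wild type, and 9 of the 10 had a fitted value above 0, that is, higher in Shh null. Of the 10, 0 were called by limma at an adjusted p under 0.05, where 2.48% of the 13224 tested genes were called. At an unadjusted p under 0.05, 5 members were higher (Krt5, Krt15, Perp, Cdh1 and Krt19), where 9.5% of tested genes were. edgeR's quasi-likelihood test (2.49% of genes called) and DESeq2 (4.04%) called 0 members as well. Both Shh null libraries lay above both wild-type libraries for 7 members, a pattern seen in 25.1% of tested genes, and below them for 0, against 25.0% of tested genes. Krt14, Krt8 and Krt18 overlapped. The median log2 fold change, on the scale of log2(CPM + 1), was 0.26 for the members and −0.0005 for all tested genes. Added together, the 10 genes had 403 and 420 CPM in Shh null and 364 and 340 CPM in wild type, means of 412 ± 11.9 and 352 ± 16.7 CPM (SD, n = 2 each) with a ratio of 1.17. An exact permutation test over the 4 libraries gave a two-sided p = 0.3333, the smallest that 2 against 2 can give.

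Trp63 and the basal keratins were not called, and their ratios ran from 1.06 for Krt14 to 2.12 for Krt15. Trp63, the regulator, had 64.3 and 60.3 CPM in Shh null and 58.0 and 52.1 CPM in wild type. The groups did not overlap, but the nearest libraries of opposite genotype lay closer together than the wild-type libraries did (log2 fold change 0.18 ± 0.11 SE, limma adjusted p = 0.415). Krt5, the type II basal chain, had 40.4 and 39.5 CPM in Shh null and 27.97 and 31.7 CPM in wild type. Its Shh null libraries were nearly equal and both above wild type, at a ratio of means of 1.34 (log2 fold change 0.41 ± 0.12 SE, limma adjusted p = 0.105). Krt14, its usual type I partner, had 23.0 and 18.7 CPM in Shh null and 23.9 and 15.5 CPM in wild type. The groups overlapped fully, and replicate 1 was the higher library in each (log2 fold change 0.10 ± 0.20 SE). The Krt14 difference was −0.04 without Shh null 1 and −0.20 without wild type 2.

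Krt15, the other type I basal chain and a marker of epidermal progenitors, differed most among the members. It had 10.6 and 7.09 CPM in Shh null (255 and 155 reads) and 5.69 and 2.64 CPM in wild type (162 and 48 reads). All Shh null values lay above wild type, though the lower Shh null library was nearer to wild type 1 than to its own replicate. The means of 8.83 ± 2.46 and 4.16 ± 2.15 CPM (SD, n = 2 each) had a ratio of 2.12. The fitted log2 fold change of 0.97 ± 0.28 SE did not pass in limma (adjusted p = 0.109), edgeR (0.132) or DESeq2 (0.0627). In the authors' deposited table Krt15 was the only member under a false discovery rate of 0.05 (0.0373, log2 fold change 1.06), where 4.01% of that table's genes were in either direction and 2.33% were higher. The size of the difference turned on single libraries: without wild type 1 the log2 fold change was 1.41, and without wild type 2 it was 0.53. With the replicate number as a block, a pairing the labels do not establish, Krt15 was the 1 member called (0.00758, where 2.99% of genes were). Per kilobase, Krt15 was at 0.458 and 0.377 of Krt14 in Shh null, and at 0.237 and 0.170 of Krt14 in wild type, groups that do not overlap. How many gene pairs have such a ratio was not computed. The ratio of Krt5 to Krt15 overlapped between the groups, at 3.08 and 4.48 in Shh null and 3.96 and 9.65 in wild type. So did that of Krt5 to Krt14, at 1.41 and 1.69 in Shh null and 0.936 and 1.64 in wild type.

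**Figure D2:**
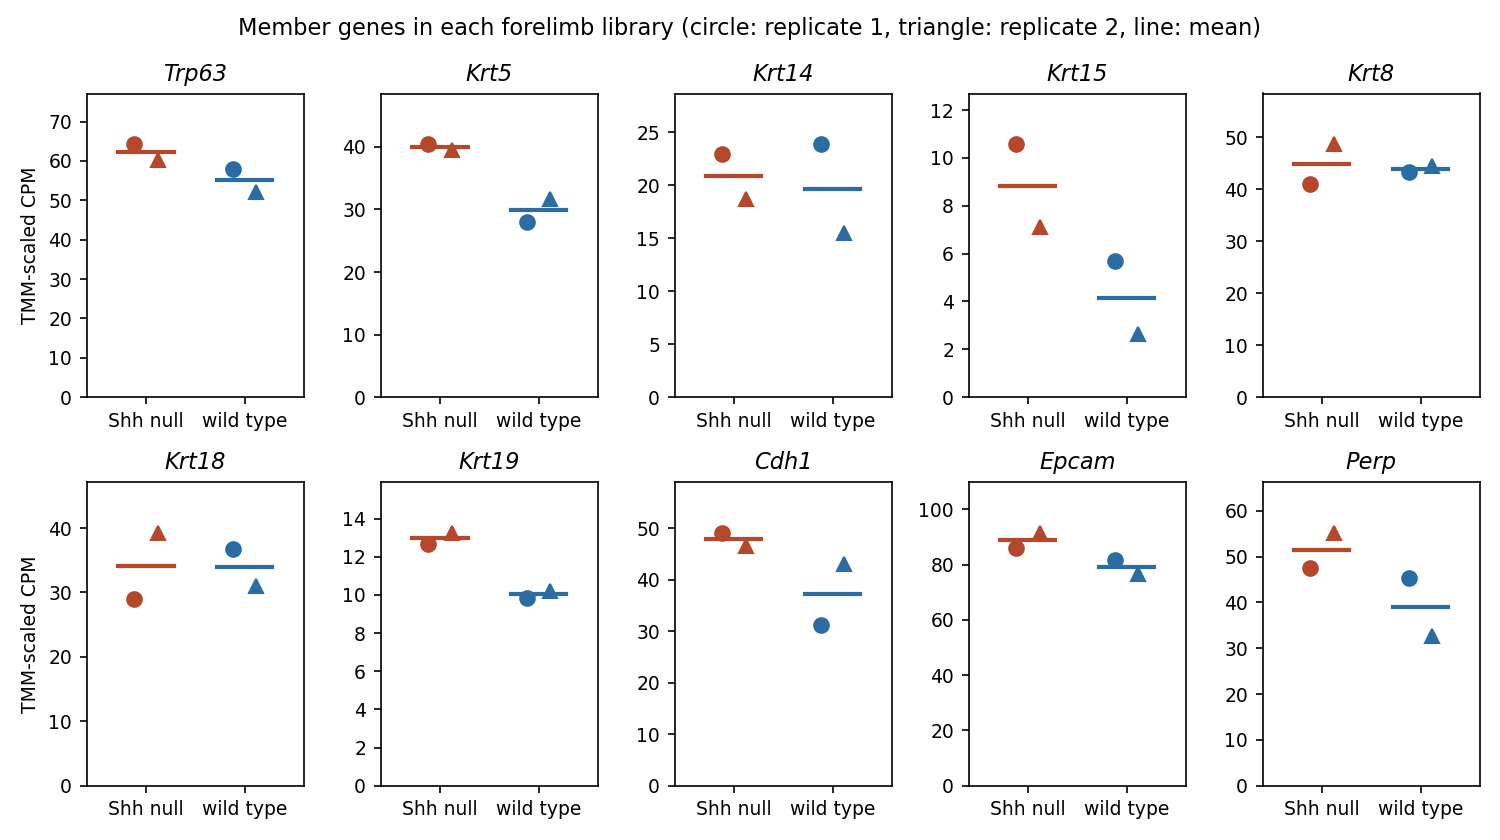
TMM-scaled CPM of each gene in each library, with Shh null on the left and wild type on the right of each panel, circles for replicate 1, triangles for replicate 2 and lines for group means; each axis starts at 0. Groups overlap for Krt14, Krt8 and Krt18, and Shh null lies above wild type in the other 7 panels.

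The simple keratins Krt8 and Krt18 overlapped between the genotypes, with ratios of means of 1.02 and 1.01. Krt8 had 40.9 and 48.7 CPM in Shh null and 43.4 and 44.5 CPM in wild type. Both wild-type libraries lay between the Shh null ones (log2 fold change 0.02 ± 0.12 SE, limma adjusted p = 0.945). Krt18 had 28.9 and 39.3 CPM in Shh null and 36.7 and 31.0 CPM in wild type, again with wild type inside the Shh null range. Its log2 fold change was −0.00 ± 0.16 SE (limma adjusted p = 0.998), with a sign that differed between alternatives. The ratio of Krt8 to Krt18 per kilobase was close to even everywhere, at 1.04 and 0.909 in Shh null and 0.866 and 1.05 in wild type. Krt19, a small type I chain, differed from this pair: it had 12.6 and 13.3 CPM in Shh null and 9.86 and 10.19 CPM in wild type. The libraries of a group were close and the groups did not overlap, at a ratio of 1.29 (log2 fold change 0.34 ± 0.14 SE, limma adjusted p = 0.245). Set against the simple chain Krt8 per kilobase, the basal chain Krt5 stood at 0.880 and 0.724 in Shh null and at 0.575 and 0.635 in wild type, which also do not overlap. Within the simple keratins the ratio of Krt8 to Krt19 did not overlap either, at 3.07 and 3.48 in Shh null and 4.17 and 4.14 in wild type. The share of gene pairs whose ratio separates the groups was not computed.

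Krt8, Krt18 and Krt19 are also made by other simple epithelia, whose markers were low apart from Afp and Bnc1. Of 6 mesothelial markers the summed level was 11.4 and 13.2 CPM in Shh null and 12.9 and 18.2 CPM in wild type, most of it Bnc1, which keratinocytes also express. Wt1, named after its values were seen, was at 0.622 and 0.915 CPM in Shh null and 0.702 and 3.53 CPM in wild type. Of 8 endodermal markers 7 had a row, summing to 21.4 and 80.6 CPM in Shh null and 21.3 and 25.9 CPM in wild type. Foxa1, Foxa2 and Nkx2-1, which define gut and lung endoderm, were each at 0 in at least 1 library. The high sum of Shh null 2 came from Afp (15.3 and 68.8 CPM in Shh null, 16.3 and 22.1 CPM in wild type), and that library also had the higher Krt8 and Krt18. Their part in the keratin values was not tested.

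The adhesion genes were higher in Shh null by 1.12 to 1.32 times, without a call. Perp, a membrane protein of desmosomes and a p63 target, had 47.5 and 55.3 CPM in Shh null and 45.3 and 32.7 CPM in wild type. Wild type 1 lay nearer to Shh null than to wild type 2 (log2 fold change 0.40 ± 0.16 SE, limma adjusted p = 0.205). Cdh1, which encodes the adherens junction protein E-cadherin, had 49.1 and 46.5 CPM in Shh null and 31.3 and 43.1 CPM in wild type. Here wild type 2 was the library near Shh null (log2 fold change 0.37 ± 0.15 SE, limma adjusted p = 0.220). Leaving out the wild-type library nearest to Shh null gave a call for each: Perp had an adjusted p of 0.0120 without wild type 1, where 3.32% of genes were called, and Cdh1 of 0.0143 without wild type 2, where 5.71% were (limma). Without the other wild-type library the log2 fold changes were 0.17 for Perp and 0.15 for Cdh1. Epcam had 86.0 and 91.6 CPM in Shh null and 81.7 and 76.7 CPM in wild type, which did not overlap (log2 fold change 0.16 ± 0.10 SE, limma adjusted p = 0.414).

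**Figure D3:**
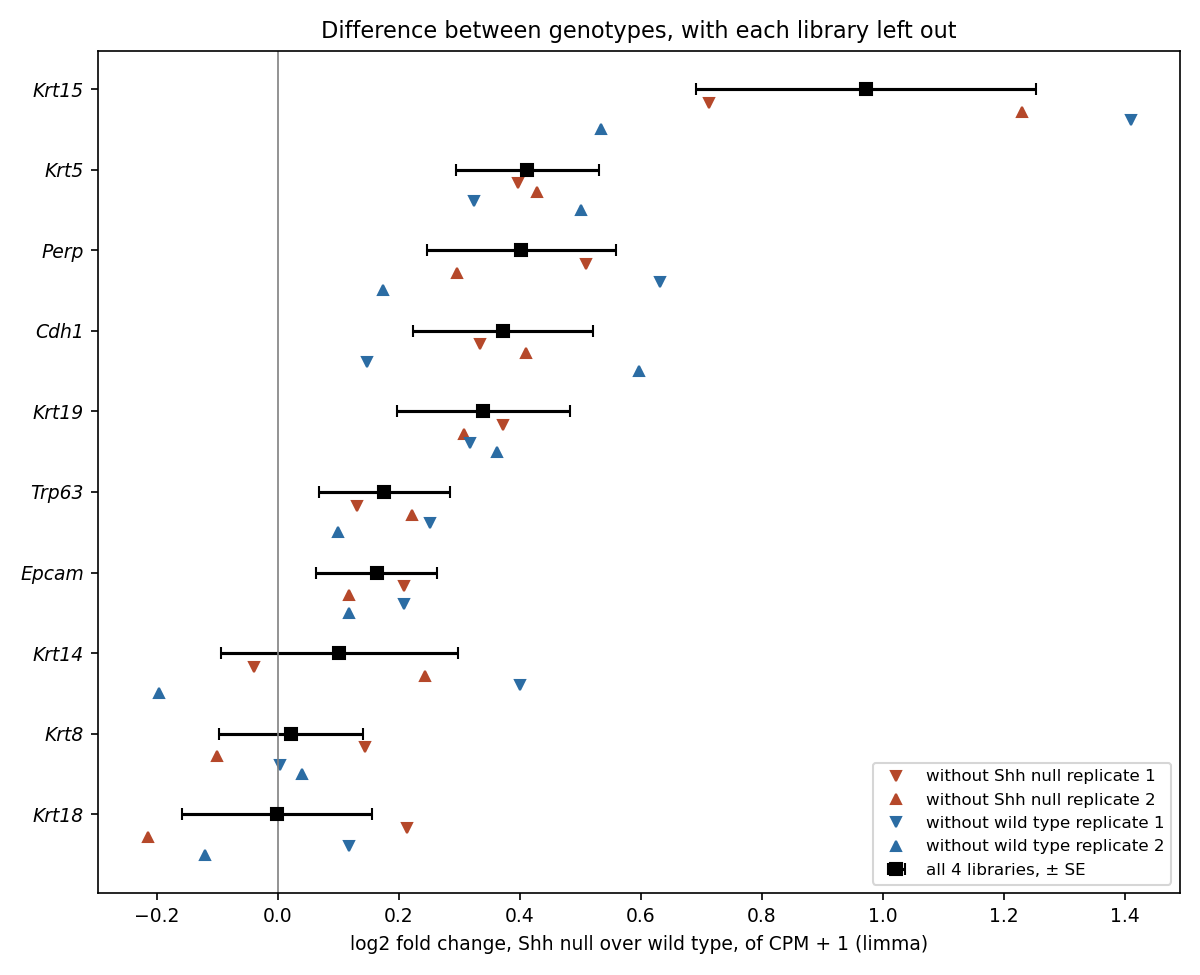
Log2 fold change of CPM + 1, Shh null over wild type (limma), with squares and bars for the estimate and its SE from all 4 libraries and triangles for the estimate with 1 library left out. Krt15 spans 0.53 to 1.41 and Krt14, Krt8 and Krt18 cross 0, while Krt5 stays between 0.32 and 0.50 and Krt19 between 0.31 and 0.37.

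Epcam, the most abundant member, gives a scale within each library. As a ratio to Epcam, Krt15, Krt5 and Krt19 were still higher in both Shh null libraries than in either wild-type library. Krt5 stood at 0.470 and 0.431 of the Epcam CPM in Shh null, and at 0.342 and 0.414 of it in wild type. Trp63 was at 0.747 and 0.658 of Epcam in Shh null, and at 0.710 and 0.680 of it in wild type, so these ranges overlapped, as did those of Krt14, Krt8, Krt18, Cdh1 and Perp. The share of all genes whose ratio to Epcam separates the groups was not computed. Such a ratio also does not say which gene of the pair differs.

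Libraries of a group differed by more than counting error for most members. Replicate 1 over replicate 2 gave a 95% counting interval (exact binomial, counting error only) that excluded 1 in wild type for Trp63, Krt5, Krt14, Krt15, Krt18, Cdh1 and Perp. In Shh null it did so for Krt14, Krt15, Krt8, Krt18, Epcam and Perp. The widest gap was Krt15 in wild type, where the ratio was 2.15 (1.55 to 3.03), and Krt14 in the same pair had 1.54 (1.34 to 1.78). Cdh1 ran the other way, at 0.726 (0.659 to 0.800). Krt19 was the member whose replicates agreed within counting error in both groups (0.953 in Shh null and 0.968 in wild type).

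The genes nearest to the mean pattern of the members were Mll5, Jup, Cdk19, Hps1 and Sord, out of 10591 tested genes with a mean of at least 5 CPM. Likeness was the root-mean-square difference over the 4 libraries of gene-centred log2(CPM + 1), and was 0.0081 for Mll5 and 0.016 for Jup. Jup, the junction protein plakoglobin, had 29.1 and 29.6 CPM in Shh null and 24.6 and 21.8 CPM in wild type. Among the members themselves this distance was smallest for Trp63 (0.069) and largest for Krt15 (0.458). Over 4 libraries many genes can come this close.

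The table held 18 other keratin genes, of which 4 passed the filter on low values and the rest stayed at or under 1.19 CPM in every library. Of the 4, 0 were called by limma, edgeR or DESeq2, and 2 had an unadjusted p under 0.05 in limma (18.5% of all tested genes). Krt7, a simple type II chain, had 7.84 and 8.05 CPM in Shh null and 6.28 and 4.74 CPM in wild type. Krt17, a type I chain of periderm and skin appendages, went in the opposite direction, with 1.41 and 1.46 CPM in Shh null and 4.42 and 2.42 CPM in wild type (log2 fold change −0.82 ± 0.23 SE, limma adjusted p = 0.105). It was the 1 tested keratin, members included, with both Shh null libraries below wild type. Among the keratins under the filter, Krt23 (0.207 and 0.274 CPM in Shh null, 1.19 and 0.881 CPM in wild type) and Krt39 also lay below wild type, and Krt75 above it. These were named after their values were seen, had few reads and were not tested. Krt10, a chain of differentiating epidermis, had 4.77 and 4.57 CPM in Shh null and 3.93 and 3.69 CPM in wild type, and Krt222 stayed under 1.2 CPM throughout. Krt1 of differentiated epidermis and Krt13 of inner layered epithelia, named for their near absence, had 6 reads or fewer in each library.

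Most genes on lists drawn up for the epithelium were not called either. Of 75 genes on 6 lists of junction, transcription and splicing, basement membrane, protease and trafficking, ectodermal signal and p63 target genes, members not counted, 69 were tested. Of these, 5 were called higher (1.24% of all tested genes were), 1 was called lower (1.24%) and 63 were not called. The gene called lower was Frem1, which is made by mesenchyme. Both Shh null libraries lay above wild type for 41 of the 69 (25.1% of all tested genes did) and below for 4 (25.0%). The log2 fold change was above 0 for 59 of the 69, against 49.9% of all tested genes, with a median of 0.24. The 10 genes of a limb mesenchyme list had a median of 0.48, also above 0.

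Among 13 tested genes of attachment to the basement membrane, Col17a1 and Frem2 were called higher, Frem1 was called lower and the other 10 were not called. Of the same 13, edgeR called 3 (2.49% of all tested genes) and DESeq2 called 4 (4.04%). In limma 7 had an unadjusted p under 0.05 (18.5% of all tested genes), and the median log2 fold change was 0.22. Col17a1, a collagen of hemidesmosomes, had 18.1 and 17.2 CPM in Shh null and 9.58 and 7.44 CPM in wild type, with means in the ratio 2.08 (log2 fold change 0.98 ± 0.16 SE, limma adjusted p = 0.0141). Frem2, a protein of the Fraser complex that ties epithelium to mesenchyme, had 88.4 and 88.8 CPM in Shh null and 55.0 and 62.8 CPM in wild type (limma adjusted p = 0.0213). Frem1 of the same complex, which is made by mesenchyme, fell: it had 50.2 and 47.4 CPM in Shh null and 188 and 155 CPM in wild type (log2 fold change −1.79 ± 0.11 SE, limma adjusted p = 5.12e-05). The Frem1 call held with any 1 library left out. Those of Col17a1 and Frem2 ended without Shh null 1 (0.172 and 0.192) and without Shh null 2 (0.0708 and 0.0965).

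Junction genes had a median log2 fold change of 0.24, and Dsp was the 1 of 19 tested genes that was called, in the higher direction. At an unadjusted p under 0.05 in limma there were 5 (18.5% of all tested genes). edgeR (2.49% of all tested genes) and DESeq2 (4.04%) called 1 each. Dsp, which encodes desmoplakin, the link from desmosomes to keratin filaments, had 115 and 121 CPM in Shh null and 76.5 and 80.8 CPM in wild type (log2 fold change 0.58 ± 0.10 SE, limma adjusted p = 0.0157). The desmosome plaque gene Pkp1 had 4.77 and 4.80 CPM in Shh null and 2.60 and 3.47 CPM in wild type and was not called (0.166). Of 12 tested ectodermal signal genes, Jag2, a Notch ligand gene, and Bambi, which encodes a decoy receptor for BMPs, were called higher and 10 were not called. Of the same 12, edgeR called 2 (2.49% of all tested genes) and DESeq2 called 6 (4.04%). In limma 7 had an unadjusted p under 0.05 (18.5% of all tested genes), and the median log2 fold change was 0.41. Jag2 had 38.8 and 36.5 CPM in Shh null and 25.3 and 25.5 CPM in wild type (limma adjusted p = 0.0392), and Bambi 142 and 165 CPM in Shh null and 112 and 105 CPM in wild type (0.0456). Without Shh null 1 the calls of Dsp, Jag2 and Bambi ended (0.122, 0.293 and 0.125), and without Shh null 2 as well (0.0856, 0.101 and 0.160). That of Jag2 also ended without wild type 1 (0.0559) and with quantile normalization (0.0532), and without a filter on low values those of Jag2 (0.0698) and Bambi (0.0834) ended.

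None of 13 tested transcription and splicing genes was called by limma or edgeR, and DESeq2 called 1 (4.04% of all tested genes). In limma 4 had an unadjusted p under 0.05 (18.5% of all tested genes), with a median log2 fold change of 0.22. Tfap2c, an AP-2 factor gene of ectoderm, had 12.3 and 13.4 CPM in Shh null and 19.2 and 19.4 CPM in wild type (limma adjusted p = 0.0680), the opposite direction to the other 12 tested genes of its list. Klf5 had 1.62 and 1.33 CPM in Shh null and 0.702 and 0.716 CPM in wild type (0.188). Of 12 tested protease and trafficking genes, Epcam and Cdh1 among them, 0 were called by limma, edgeR or DESeq2. In limma 3 had an unadjusted p under 0.05 (18.5% of all tested genes), and the median was 0.15. Spint1, a serine protease inhibitor gene, had 26.9 and 27.997 CPM in Shh null and 23.2 and 17.3 CPM in wild type, and Myo5b, a motor of membrane recycling, had 11.9 and 11.6 CPM in Shh null and 9.76 and 7.99 CPM in wild type. Of the 13 tested genes on the p63 target list, which holds 3 members, Jag2 was the 1 called by limma, and 12 were not (median 0.22). On this list edgeR called 1 (2.49% of all tested genes) and DESeq2 2 (4.04%). In limma 6 had an unadjusted p under 0.05 (18.5% of all tested genes). Dlx5 on that list had 2.28 and 2.97 CPM in Shh null and 1.23 and 0.937 CPM in wild type (limma adjusted p = 0.0728).

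**Figure D4:**
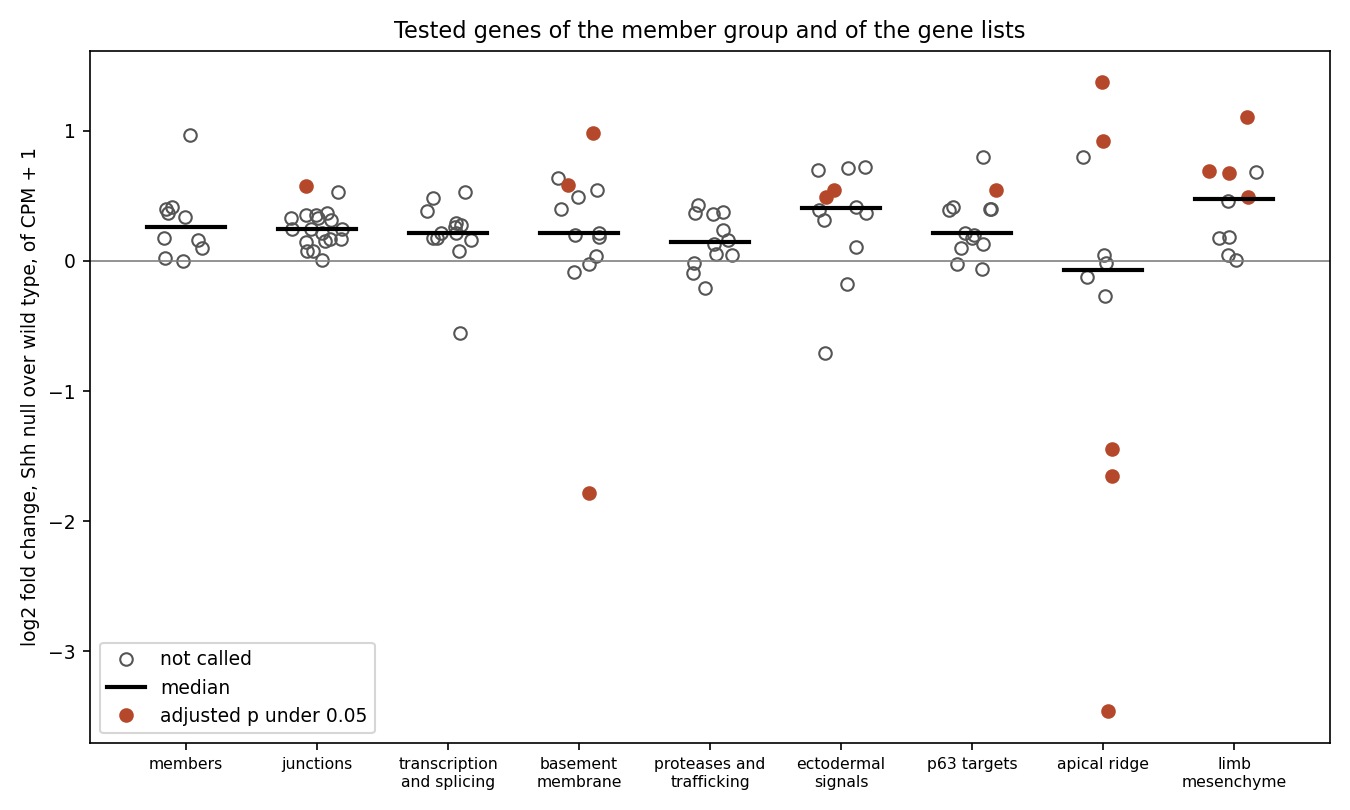
Log2 fold change of CPM + 1, Shh null over wild type, of every tested gene in the member group and in 8 gene lists, with filled points for genes at an adjusted p under 0.05 (limma) and lines for medians. The members have a median of 0.26 and no filled point, and the apical ridge list has filled points on both sides of 0.

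The apical ridge is the thickened rim of the same epithelium. Of 10 tested ridge genes Msx2 and Dlx3 (the second named after its values were seen) were called higher, the growth factor genes Fgf4, Fgf8 and Fgf9 lower, and 5 were not called (median log2 fold change −0.07). Fgf4 (0.0415 and 0.137 CPM in Shh null, 12.3 and 9.81 CPM in wild type), Fgf8 (5.23 and 10.34 CPM in Shh null, 30.2 and 21.3 CPM in wild type) and Fgf9 (1.58 and 2.61 CPM in Shh null, 9.41 and 5.62 CPM in wild type) fell, the calls of Fgf8 and Fgf9 ending without Shh null 1 (limma adjusted p = 0.0888 and 0.204). Msx2, a BMP target made in ridge and mesenchyme, had 64.4 and 71.2 CPM in Shh null and 26.1 and 24.96 CPM in wild type. The Dlx3 call ended without Shh null 1 (limma adjusted p = 0.216), without Shh null 2 (0.0992), without a filter (0.0660) and with quantile normalization (0.0547), and that of Fgf9 also ended without a filter (0.0586). A test of ridge genes against the members was not made.

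Markers of the other cell types gave the following values. Beside them, 1.24% of all tested genes were called higher and 1.24% lower in limma, and 18.5% had an unadjusted p under 0.05. Of 10 limb mesenchyme genes 4 were called higher (Col1a2, Twist1, Prrx2 and Prrx1), and their summed level was 4618 and 4121 CPM in Shh null and 3022 and 3199 CPM in wild type. Col1a2, a fibrillar collagen gene, had 1055 and 788 CPM in Shh null and 381 and 470 CPM in wild type. Of 6 endothelial genes 0 were called by limma, edgeR or DESeq2 and 0 had an unadjusted p under 0.05, with Tie1 at 26.1 and 22.5 CPM in Shh null and 17.9 and 23.2 CPM in wild type, and Tek at a log2 fold change of 0.12. The macrophage list summed to 18.7 and 16.8 CPM in Shh null and 10.04 and 8.59 CPM in wild type, with Cx3cr1 called higher among 5 tested genes and C1qb next in size (log2 fold changes 1.02 and 0.76). In the neural crest list Erbb3 was called higher (22.8 and 22.0 CPM in Shh null, 13.6 and 11.4 CPM in wild type), while Sox10 and Foxd3, which define this lineage, were under 0.6 CPM in every library. Of 4 tested endodermal genes Ttr was called higher (2.82 and 3.61 CPM in Shh null, 1.30 and 1.05 CPM in wild type) and Apoa1 was not (log2 fold change 0.76). Of 3 tested mesothelial genes 0 were called by limma, edgeR or DESeq2, and 0 had an unadjusted p under 0.05, with Upk1b and Lrrn4 each at a log2 fold change of −0.15. Without Shh null 1 the calls of Col1a2, Prrx1, Prrx2, Ttr, Erbb3 and Cx3cr1 ended (limma adjusted p = 0.0757 to 0.321), without Shh null 2 those of Twist1, Prrx1, Prrx2, Ttr, Erbb3 and Cx3cr1 (0.0577 to 0.151), and without wild type 1 that of Prrx1 (0.112). Without a filter the calls of Prrx1, Prrx2, Ttr, Erbb3 and Cx3cr1 ended (limma adjusted p = 0.0514 to 0.0870), with quantile normalization those of Ttr (0.0812) and Cx3cr1 (0.0750), in DESeq2 that of Ttr (0.0544) and with the replicate block that of Prrx1 (0.0661). The part of cell make-up in the values of the ectoderm genes was not tested.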

How the data were processed

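The submitters' processing notes name build mm10 and the tools edgeR 3.4.2, HTSeq 0.5.4p5, TopHat2 2.0.9 and SAMtools. What each tool did, the gene models and the strandedness of counting were not given in the sources used here. For every gene the authors deposited a scaled signal in each library. All values (100%) were whole multiples of the column's smallest positive value within 0.001 reads, and TMM scaling of the recovered reads gave the deposited signal with a difference of 0%, so it is called TMM-scaled CPM. The authors deposited a second table with log2 fold changes, p-values and false discovery rates, quoted only where named.

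Genes with at least 1 CPM in at least 2 libraries (13224) were fitted as log2(CPM + 1) in limma 3.58.1 (R 4.3.3, intensity trend, genotype only), with Benjamini-Hochberg adjustment over all of them and a threshold of 0.05. This scale understates changes of low genes. As alternatives, the recovered reads went into edgeR 4.0.16 (329 genes called) and DESeq2 1.42.0 (534), and other pseudocounts, scalings, filters and left-out libraries were tried. The fit was first tested on simulated data whose spread was set by hand, not estimated from these libraries. It called 52.2% of 1.5-fold changes in the right direction, 98.5% of 2-fold changes and 100% of 4-fold changes. All members except Krt15 had ratios under 1.5, so their lack of a call is not evidence of no difference. The same holds for Krt15, whose wild-type libraries differed by a ratio of 2.15, a spread that the simulation did not use. Exon lengths and positions came from GENCODE M21 and promoters from RefSeq. The members and lists were chosen with earlier results of these data known. Genes named were the members, Shh, up to 4 called genes of each list by size of change (where fewer than 2 passed, the top 2), the 4 most abundant other keratins and the 5 genes nearest in pattern. Others, among them Afp, Bnc1, Xist and Ddx3y, lie outside this rule, and some were chosen after their values were seen or for their absence. One gene that this rule names is not reported here.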

Additional observations from a re-analysis of the deposited data

How the results depend on the processing

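Over 13 alternatives the log2 fold changes of Trp63, Krt5, Krt15, Krt19, Cdh1, Epcam and Perp stayed above 0. The groups of these 7 did not overlap, so leaving out a library or changing the pseudocount could not turn their sign. Fits with a block or without a filter leave every estimate unchanged by construction. The log2 fold change of Krt18 (−0.00) changed sign with quantile normalization (0.0012) and in edgeR (0.0061). With 1 library left out Krt18 ranged from −0.22 to 0.21, Krt14 from −0.20 to 0.40 and Krt8 from −0.10 to 0.14. With 1 library left out the number of members called ranged from 0 to 2, that of epithelial list genes (6 with all libraries) from 1 to 9, and that of all genes (328) from 61 to 749, with 16 to 373 higher and 45 to 376 lower; the lone library of a group was assumed to vary like the others. Without a filter 170 genes were called, 79 higher and 91 lower, and the calls of Jag2, Bambi, Dlx3, Fgf9, Prrx1, Prrx2, Ttr, Erbb3 and Cx3cr1 ended; those of Jag2, Dlx3, Ttr and Cx3cr1 also ended with quantile normalization. DESeq2 called 534, with 292 lower, and 12 epithelial list genes. The log2 ratio of the summed CPM of the members (0.23) was 0.28 without Krt8 and Krt18. In the labels, same-numbered libraries share only a number. Their deviations from the group means correlated at r = −0.20 across genes. With 2 libraries a group, the crossed pairing then correlates positively to the same extent. With the replicate block 396 genes and 1 member (Krt15, limma adjusted p = 0.00758) were called. A crossed replicate block (Shh null 1 with wild type 2) was added after seeing the data. With it 1386 genes were called, 641 higher and 745 lower, with 4 members and 18 epithelial list genes. This block is the pairing with the positive correlation, so its counts are not independent of that choice. With 1 wild-type library left out, whichever it was, Fgf4 fell under the filter and could not be fitted. With 2 libraries a group, the precision of every value is limited by the spread between them.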
